A study of Mus musculus with 6 samples.

Results

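The genes described here are a module of type I interferon-stimulated and antiviral genes, taken from a list of 47 gene symbols that covers interferon-induced effectors and the cytosolic sensing of nucleic acids. A gene was measured if the array carried a probe set (a group of probes summarised as 1 value) with that single symbol, which held for 45 of the 47, among 19938 genes measured in all. Isg15 and Ifi44 had no probe set with a single symbol and were not analysed here. RNA of dendritic cells, sorted out of wild-type mouse spleen, was measured on 6 Affymetrix arrays, 2 arrays for each of 3 populations, with no treatment named and no strain, sex, age or number of mice given in the labels. The populations are CD24+CD172a+ cDC2 (type 2 conventional dendritic cells that carry the surface protein CD24), CD24-CD172a+ cDC2 (type 2 cells without it, labelled in the sample titles by CD172a alone) and CD24+ cDC1 (type 1 conventional dendritic cells, CD172a- by the series title). Levels are log2 intensities, means are given with their SD (n = 2 arrays), and differences are log2 differences with the standard error (SE) from limma. A gene was called when its adjusted p from limma over all 19938 genes was under 0.05.

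Type I interferons are cytokines that bind a receptor made of the chains IFNAR1 and IFNAR2. The receptor activates the kinases JAK1 and TYK2, and a complex that holds the transcription factors STAT2 and IRF9 then binds interferon-stimulated response elements near the start sites of many genes whose products hinder viral replication. Cells that have not met a virus also hold a basal level of these products, and the RNA sensors among them can start a new round of interferon production through the adaptor MAVS. Dendritic cells use this system both to resist infection and to tune antigen presentation.

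Intensity medians were 29.5 to 30.6 per array, replicate arrays correlated at 0.992 to 0.993 across genes, and no array stood apart from its replicate. The sorted identities were borne out by their markers. Of 10 cDC1 markers, 10 were lower in CD24+CD172a+ cDC2 and 9 were lower in CD24-CD172a+ cDC2 than in cDC1, with Xcr1, the chemokine receptor of cDC1, lower by log2 differences of -5.59 ± 0.21 and -4.85 ± 0.21. Of 10 cDC2 markers, 9 and 10 were higher in these populations than in cDC1. Whether the 2 arrays of a population came from separate animals is not stated in the labels, so the p-values measure the spread between these arrays only.

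The sequences in front of the genes are shown first, because the members with the largest differences between populations fall into genes with and without a recognisable interferon response element there. RefSeq promoter windows (GRCm38.p6, from 250 bases before to 50 after the transcription start) were at hand for 35 of the 45 measured members. A motif like the interferon-stimulated response element (ISRE-like), GAAA, any 2 letters and GAAA again on either strand, lay in a window of 13 of these 35 members, against 3.99% of 27025 genes with a window (3.44% of 32851 windows). A motif like the gamma-activated site (GAS-like), TTC, any 3 letters and GAA, which reads the same on both strands, lay in 10 of the 35 members and in 9.55% of all genes. A match describes letters only and does not show that a factor was bound. The 250 bases before the start are printed below 5′ to 3′ on the gene's strand, with ISRE-like matches in capitals, for 4 genes that hold such a match and for a pair of genes of the IFITM family that do not.
Ifit3 (chr19:34583279-34583528, plus strand): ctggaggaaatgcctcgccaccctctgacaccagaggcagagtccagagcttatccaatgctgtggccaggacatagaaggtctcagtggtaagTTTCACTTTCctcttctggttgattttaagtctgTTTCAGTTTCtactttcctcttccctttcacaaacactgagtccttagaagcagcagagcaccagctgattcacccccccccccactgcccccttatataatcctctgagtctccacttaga
Ifit1 (chr19:34640639-34640888, plus strand): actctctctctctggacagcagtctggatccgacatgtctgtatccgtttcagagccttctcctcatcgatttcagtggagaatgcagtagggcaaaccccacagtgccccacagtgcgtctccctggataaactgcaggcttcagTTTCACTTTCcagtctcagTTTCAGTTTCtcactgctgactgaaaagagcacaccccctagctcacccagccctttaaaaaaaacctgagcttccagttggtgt
Oas1a (chr5:120907526-120907775, minus strand): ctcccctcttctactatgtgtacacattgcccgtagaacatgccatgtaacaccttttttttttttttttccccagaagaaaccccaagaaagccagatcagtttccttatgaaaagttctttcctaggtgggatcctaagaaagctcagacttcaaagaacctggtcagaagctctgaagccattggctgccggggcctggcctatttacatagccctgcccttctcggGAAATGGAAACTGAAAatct
Ddx60 (chr8:61927837-61928086, plus strand): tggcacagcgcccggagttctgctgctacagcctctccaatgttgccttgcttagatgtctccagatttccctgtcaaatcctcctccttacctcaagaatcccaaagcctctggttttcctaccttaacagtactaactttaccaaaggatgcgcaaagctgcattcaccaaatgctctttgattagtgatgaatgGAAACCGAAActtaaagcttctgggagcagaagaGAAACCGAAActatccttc
Ifitm6 (chr7:141016893-141017142, minus strand): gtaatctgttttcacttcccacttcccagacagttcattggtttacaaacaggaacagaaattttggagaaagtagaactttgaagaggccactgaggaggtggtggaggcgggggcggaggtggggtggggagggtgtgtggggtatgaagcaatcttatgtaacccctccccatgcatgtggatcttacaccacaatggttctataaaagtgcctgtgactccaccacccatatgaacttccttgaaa
Ifitm1 (chr7:140967826-140968075, plus strand): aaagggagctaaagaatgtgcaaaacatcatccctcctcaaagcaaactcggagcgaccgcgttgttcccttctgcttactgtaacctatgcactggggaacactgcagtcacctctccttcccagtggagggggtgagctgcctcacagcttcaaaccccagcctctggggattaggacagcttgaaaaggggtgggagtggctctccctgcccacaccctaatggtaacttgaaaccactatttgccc
In Ifit3 the matches lay at positions -156 to -147 and -122 to -113 from the start, and in Ifit1 at -104 to -95 and -85 to -76, in each gene with the same pair of 10-letter words in the same order, read on the strand opposite to the gene. In Oas1a the matches at -20 to -11 and -14 to -5 overlapped each other, and in Ddx60 they lay at -53 to -44 and -19 to -10. The window of Ifitm6 held 1 GAS-like match at -10 to -2, and that of Ifitm1 held neither motif. Of all members, Ifitm3 alone had an ISRE-like and a GAS-like match that overlapped. Of the members higher than cDC1 in both cDC2 populations, 8 of 14 with a window held the ISRE-like motif (Ddx60, Ifit1, Ifit3, Oas1a, Rsad2, Ifitm2, Ifitm3 and Slfn8). Among members with a window that were called in none of the comparisons it lay in 3 of 12 (Stat2, Oas3 and Slfn5). Of those with a window that were lower than cDC1 in a cDC2 population it lay in 1 of 3 (Eif2ak2), while Mx1 had no window. Of the members lower in CD24+CD172a+ than in CD24-CD172a+ cDC2, Ifih1 and Ifit3 held it and Oasl1 did not, while Rtp4 had no window.

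Between the cDC2 populations, the question is what goes with CD24 on the cell surface. CD24+CD172a+ cDC2 had the lower level of Ifih1, Ifit3, Rtp4 and Oasl1, an RNA sensor and 3 interferon-induced genes, by 1.60-fold to 2.04-fold. Thus 4 of 45 members (8.89%) were called lower, against 0.652% of all genes tested. The members were chosen with earlier results of these data known. Here and in the comparisons with cDC1, shares beside those of all genes are therefore descriptive and not independent evidence about the module. Members called higher numbered 0 (1 member, Mavs, had an unadjusted p under 0.05 in limma), against 0.808% of all genes (1.46% in either direction). All genes include many at low levels, while 38 members lay above the median level. In a fit of the 9969 genes above the median, 168 were lower and 269 higher. Of the 38 members in that fit, 5 were lower and 0 higher (1 at an unadjusted p under 0.05 in limma). The median difference over the members was -0.23, against -0.01 over all genes. The arrays of the populations did not overlap for 29 members, 24 of them lower and 5 higher in CD24+CD172a+ cDC2, against 22.8% of all genes lower and 21.4% higher with no overlap. In bulk RNA of a sorted population, fewer cells of a type and less RNA per cell cannot be told apart.

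CD24+CD172a+ cDC2 were next set beside cDC1, with which they share CD24. All 4 IFITM genes, Ifit1 and Ifit3, 3 oligoadenylate synthetase genes, Rsad2, Isg20 and Rtp4 were higher in CD24+CD172a+ cDC2, and Rtp4 had the largest difference among members (11.8-fold). In total 21 members (46.7%) were higher, against 7.11% of all genes, and 3 (6.67%) were lower, against 6.52% of all genes: Mx1, Parp12 and Oasl1. Called members were thus 53.3% of the module, against 13.6% of all genes. The contrast was smaller among the 9969 genes above the median level, where 1522 were higher and 1388 lower. Of the 38 members among these, 18 were higher and 4 lower. The median difference was 0.43 over the members and -0.03 over all genes. Members whose arrays did not overlap numbered 30 higher and 8 lower, against 23.5% and 28.6% of all genes.

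The comparison of CD24-CD172a+ cDC2 with cDC1 uses the same cDC1 arrays as the one before. Here all 3 IFIT genes, all 4 IFITM genes and the ISG15 pathway genes Usp18 and Herc6 were higher in CD24-CD172a+ cDC2, with Rtp4 at 22.4-fold and Ifit3 at 9.14-fold. In total 23 members (51.1%) were higher, against 6.83% of all genes, and 3 (6.67%) were lower, against 8.91% of all genes: Mx1, Parp12 and Eif2ak2. Called members were thus 57.8% of the module, against 15.7% of all genes. Here too the contrast was smaller among the 9969 genes above the median level, where 1366 were higher and 1974 lower. Of the 38 members among these, 23 were higher and 4 lower. The median difference was 0.63 over the members and 0.00 over all genes. Members whose arrays did not overlap numbered 33 higher and 6 lower, against 25% and 27.4% of all genes.

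**Figure D1:**
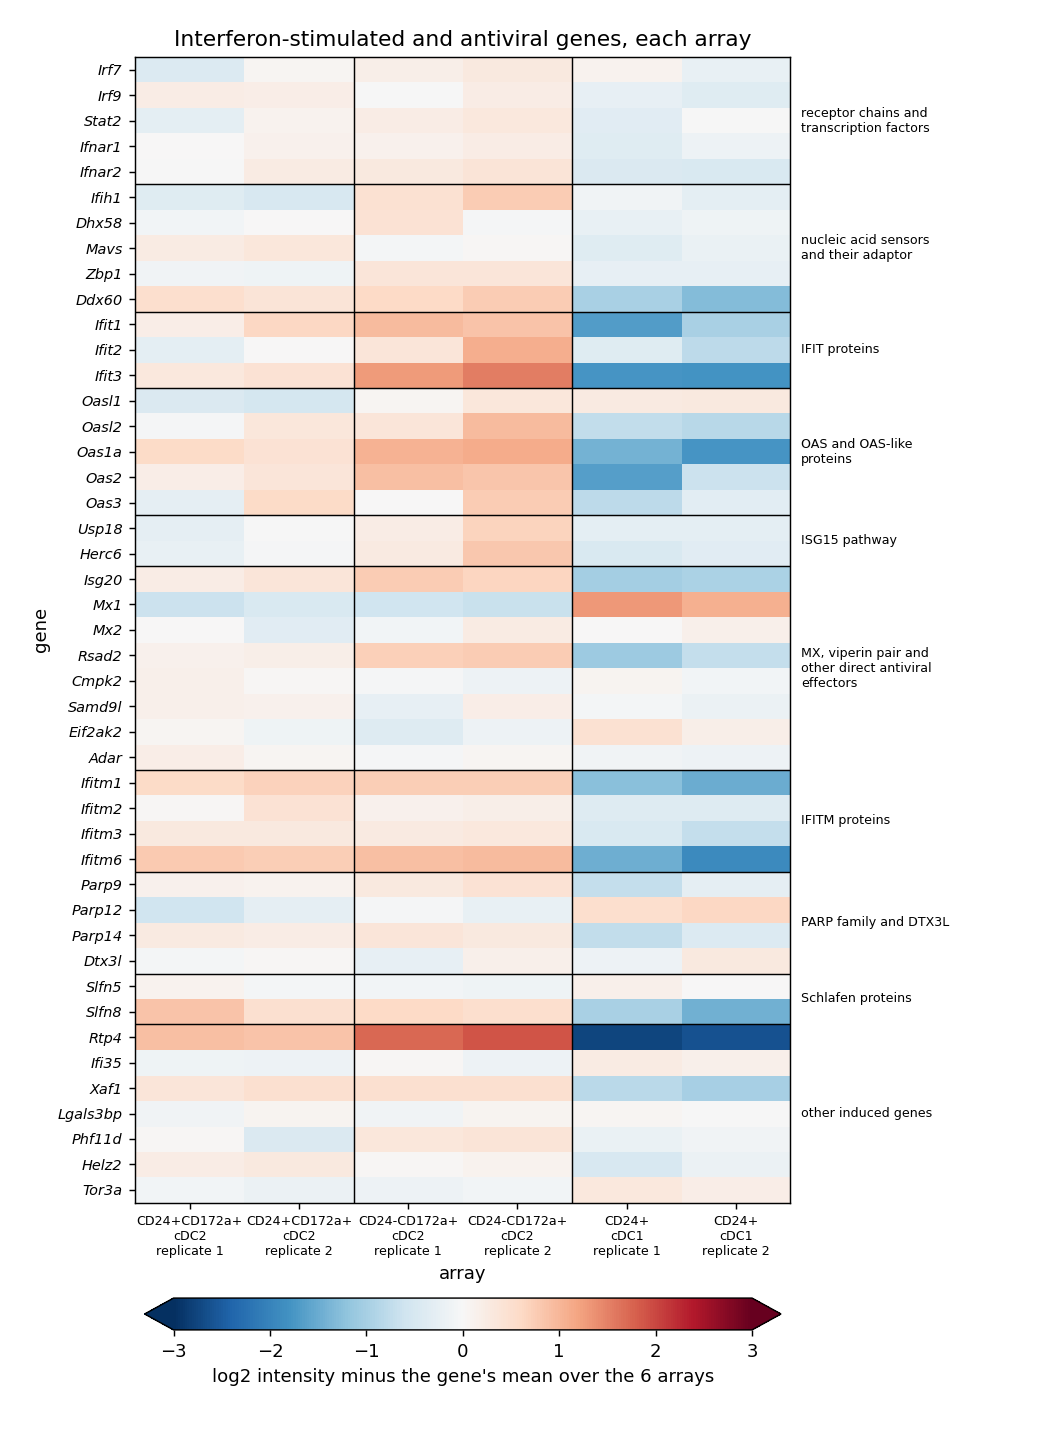
Log2 intensity of each of the 45 measured members on each of the 6 arrays, minus that gene's mean over the 6 arrays, with genes in rows grouped by role and arrays in columns. Rtp4, Ifit3, Oas1a and Ifitm6 are the bluest rows in CD24+ cDC1, and Mx1 and Parp12 run the other way.

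Averaged over the 45 members, the level was 6.70 and 6.77 on the CD24+CD172a+ cDC2 arrays, 6.92 and 7.05 on the CD24-CD172a+ cDC2 arrays and 6.14 and 6.16 on the cDC1 arrays, while the mean over all genes was 5.34 to 5.36 on every array. The order of the 3 populations was thus the same on every pair of arrays. Replicates also differed in a shared direction in 1 population: in CD24-CD172a+ cDC2, replicate 2 lay above replicate 1 for 33 of 45 members, against 49.7% of all genes. In CD24+CD172a+ cDC2 this held for 24 members, and in cDC1 for 22.

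Of the 45 members, 18 were higher than cDC1 in both cDC2 populations, 2 were lower in both, and 15 were called in none of the 3 comparisons. Another 3 were called higher than cDC1 in CD24+CD172a+ cDC2 alone (Irf9, Mavs and Helz2) and 5 in CD24-CD172a+ cDC2 alone (Ifih1, Zbp1, Ifit2, Usp18 and Herc6). The shares of all genes with these patterns are not given here, so the counts describe the members only. Since both comparisons use the same cDC1 arrays, their difference is the comparison of the cDC2 populations, and of these 8 genes that comparison called Ifih1.

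**Figure D2:**
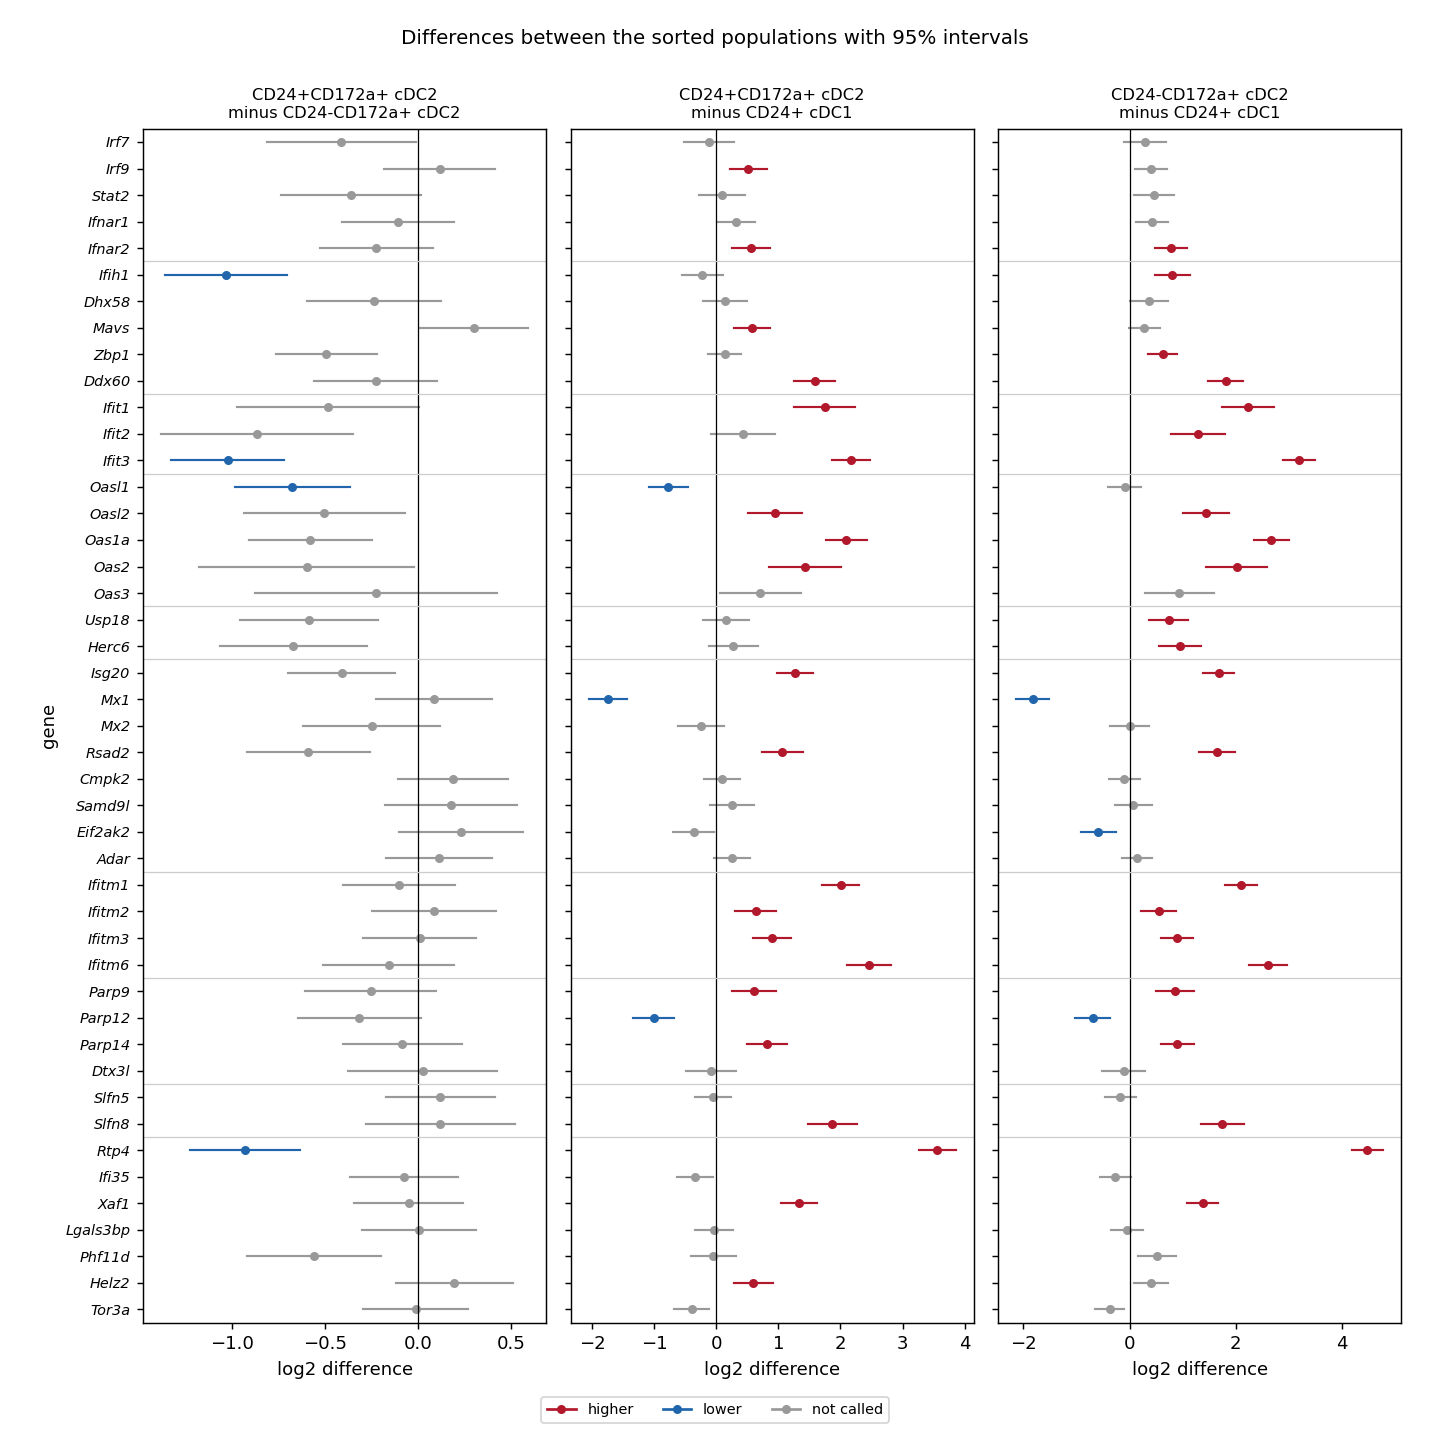
Log2 difference of each member in the 3 comparisons, with 95% intervals from limma, red where called higher, blue where called lower and grey where not called. In the left panel most points lie left of 0 and 4 are called, while in the other panels most points lie right of 0 and Rtp4 lies farthest out.

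Among the receptor chains and transcription factors, Ifnar2, the chain that binds interferon with high affinity, was the member higher than cDC1 in both cDC2 populations. Its mean level was 9.33 ± 0.19 in CD24+CD172a+ cDC2, 9.55 ± 0.07 in CD24-CD172a+ cDC2 and 8.77 ± 0.01 in cDC1. The differences from cDC1 were 0.56 ± 0.14 (adjusted p = 0.0197) and 0.79 ± 0.14 (adjusted p = 0.00263). Ifnar1, the other chain, ran the same way without passing the threshold. It stood at 8.34 and 8.47 in CD24+CD172a+ cDC2, against 8.47 and 8.56 in CD24-CD172a+ cDC2 and 7.98 and 8.19 in cDC1, with adjusted p of 0.178 and 0.0575 against cDC1.

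Irf9, the DNA-binding part of the complex that interferon activates, was higher in CD24+CD172a+ cDC2 (7.17 ± 0.01) than in cDC1 (6.65 ± 0.08), by 0.52 ± 0.13 (adjusted p = 0.0273). Its difference between CD24-CD172a+ cDC2 and cDC1, 0.40 ± 0.13, was not called (adjusted p = 0.0731). Stat2, the partner of IRF9, had levels of 6.14 and 6.55 in CD24+CD172a+ cDC2, with 6.65 and 6.75 in CD24-CD172a+ cDC2 and 6.08 and 6.41 in cDC1. Only the CD24-CD172a+ cDC2 arrays lay above both others, by 0.46 ± 0.17 over cDC1 (adjusted p = 0.107). Irf7, the factor that amplifies interferon production, read 6.34 and 6.81 in CD24+CD172a+ cDC2, against 6.94 and 7.03 in CD24-CD172a+ cDC2 and 6.87 and 6.52 in cDC1. It was not called, and its difference between the cDC2 populations was -0.41 with a 95% interval of -0.81 to -0.01 (adjusted p = 0.343).

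Among the sensors, Ifih1 (MDA5, which detects long double-stranded RNA) set the cDC2 populations apart. Its level was 7.51 and 7.40 in CD24+CD172a+ cDC2, against 8.33 and 8.64 in CD24-CD172a+ cDC2 and 7.77 and 7.59 in cDC1. Both CD24-CD172a+ cDC2 arrays lay above the other 4 arrays, while CD24+CD172a+ cDC2 lay close to cDC1. The difference between the cDC2 populations was -1.03 ± 0.15 (2.04-fold lower in CD24+CD172a+ cDC2, adjusted p = 0.00973). CD24-CD172a+ cDC2 exceeded cDC1 by 0.81 ± 0.15 (adjusted p = 0.00346), and CD24+CD172a+ cDC2 differed from cDC1 by -0.22 ± 0.15 (adjusted p = 0.428).

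Ddx60, a helicase reported to assist RNA sensing, was at 5.09 and 4.97 in CD24+CD172a+ cDC2, against 5.17 and 5.34 in CD24-CD172a+ cDC2 and 3.60 and 3.29 in cDC1. All 4 cDC2 arrays thus lay well above cDC1, by 1.58 ± 0.15 (adjusted p = 3.43e-05) in CD24+CD172a+ cDC2 and by 1.81 ± 0.15 (adjusted p = 1.3e-05) in CD24-CD172a+ cDC2. Its cDC1 mean, 3.45, lay below 3.93, the 25th percentile of all genes on all arrays, a range called dim here. Background was not examined, so a difference from a dim level may understate the change. Zbp1, a sensor of Z-form nucleic acid that can trigger necroptosis, was at 6.80 ± 0.01 in CD24+CD172a+ cDC2, 7.29 ± 0.00 in CD24-CD172a+ cDC2 and 6.66 ± 0.01 in cDC1. It was called higher in CD24-CD172a+ cDC2 than in cDC1 (0.63 ± 0.12, adjusted p = 0.00529), and its difference between the cDC2 populations was -0.49 ± 0.12 (adjusted p = 0.0905).

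Mavs, the mitochondrial adaptor that relays signals of the RNA sensors, was at 6.51 ± 0.07 in CD24+CD172a+ cDC2, 6.21 ± 0.07 in CD24-CD172a+ cDC2 and 5.93 ± 0.12 in cDC1. It was called higher in CD24+CD172a+ cDC2 than in cDC1 (0.58 ± 0.13, adjusted p = 0.0138). Between the cDC2 populations it differed by 0.30 ± 0.13 (adjusted p = 0.346), the opposite sign to Ifih1, whose protein signals through it. Dhx58 (LGP2, a regulator of RNA sensing) was at 5.52 and 5.59 in CD24+CD172a+ cDC2, with 6.02 and 5.56 in CD24-CD172a+ cDC2 and 5.36 and 5.47 in cDC1. Its cDC2 arrays overlapped and it was called nowhere.

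The IFIT genes encode proteins that bind foreign RNA and block its translation, and they showed some of the widest spacing in the module. Ifit3 had levels of 6.53 and 6.65 in CD24+CD172a+ cDC2, against 7.48 and 7.74 in CD24-CD172a+ cDC2 and 4.43 and 4.40 in cDC1. The 3 populations formed 3 separate steps with no overlap. Ifit3 was 2.03-fold lower in CD24+CD172a+ cDC2 than in CD24-CD172a+ cDC2 (-1.02 ± 0.14, adjusted p = 0.00833). Against cDC1 it was 4.51-fold higher in CD24+CD172a+ cDC2 (2.17 ± 0.14, adjusted p = 1.83e-06) and 9.14-fold higher in CD24-CD172a+ cDC2 (3.19 ± 0.14, adjusted p = 9.9e-08). Both ISRE-like words printed above for Ifit3 also stand in front of Ifit1.

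Ifit1 followed the same order at 5.09 and 5.51 in CD24+CD172a+ cDC2, against 5.83 and 5.74 in CD24-CD172a+ cDC2 and 3.20 and 3.91 in cDC1, where its mean was dim. It was higher than cDC1 by 1.74 ± 0.22 in CD24+CD172a+ cDC2 (adjusted p = 0.000324) and by 2.23 ± 0.22 in CD24-CD172a+ cDC2 (adjusted p = 5.46e-05). The difference of -0.48 ± 0.22 between the cDC2 populations was not called (adjusted p = 0.363), although their arrays did not overlap. Ifit2 was dim in CD24+CD172a+ cDC2 (3.53 ± 0.22) and in cDC1 (3.10 ± 0.29) and stood at 4.40 ± 0.51 in CD24-CD172a+ cDC2. It was called higher in CD24-CD172a+ cDC2 than in cDC1 (1.30 ± 0.23, adjusted p = 0.00305), and its difference of -0.86 ± 0.23 between the cDC2 populations was not called (adjusted p = 0.114).

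The oligoadenylate synthetases make the second messenger that activates the RNA-degrading enzyme RNase L. Oas1a was at 7.26 and 7.12 in CD24+CD172a+ cDC2, with 7.73 and 7.81 in CD24-CD172a+ cDC2 and 5.28 and 4.92 in cDC1. The populations again formed 3 steps without overlap, and the step to cDC1 was the widest. The differences from cDC1 were 2.09 ± 0.15 (4.26-fold, adjusted p = 4.61e-06) for CD24+CD172a+ cDC2 and 2.67 ± 0.15 (6.36-fold, adjusted p = 7.21e-07) for CD24-CD172a+ cDC2. Between the cDC2 populations Oas1a differed by -0.58 ± 0.15, which was not called (adjusted p = 0.102).

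Oas2 was at 6.09 and 6.24 in CD24+CD172a+ cDC2, against 6.80 and 6.73 in CD24-CD172a+ cDC2 and 4.22 and 5.25 in cDC1. The cDC1 replicates lay 1.03 apart, the widest gap between replicates of any member. Oas2 was higher than cDC1 by 1.42 ± 0.26 (adjusted p = 0.00374) and 2.02 ± 0.26 (adjusted p = 0.00035) in the CD24+CD172a+ and CD24-CD172a+ cDC2. Without cDC1 replicate 1 the first of these differences was 0.91. That fit has 1 cDC1 array, so its spread no longer holds the gap between the cDC1 replicates. Oasl2, a family member with ubiquitin-like domains, was at 6.12 ± 0.26, 6.62 ± 0.41 and 5.18 ± 0.07 in CD24+CD172a+ cDC2, CD24-CD172a+ cDC2 and cDC1, and was called higher in both cDC2 populations (0.94 ± 0.19 and 1.45 ± 0.19, adjusted p = 0.00787 and 0.00048).

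Oasl1, which in mice restrains translation of Irf7 mRNA, had another pattern than its relatives. Its level was 6.08 and 5.99 in CD24+CD172a+ cDC2, against 6.56 and 6.85 in CD24-CD172a+ cDC2 and 6.79 and 6.81 in cDC1. CD24+CD172a+ cDC2 lay below the other 4 arrays, and the arrays of CD24-CD172a+ cDC2 and cDC1 overlapped. Oasl1 was lower in CD24+CD172a+ cDC2 than in CD24-CD172a+ cDC2 by -0.68 ± 0.14 (adjusted p = 0.0462) and than in cDC1 by -0.77 ± 0.14 (adjusted p = 0.00349). Oas3 was at 4.63 and 5.48 in CD24+CD172a+ cDC2, against 4.91 and 5.65 in CD24-CD172a+ cDC2 and 4.12 and 4.57 in cDC1, with replicates too far apart for a call (adjusted p = 0.164 and 0.0564 against cDC1).

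ISG15 is a ubiquitin-like protein that interferon induces, and of its pathway Usp18, which removes ISG15 and damps receptor signalling, and Herc6, the main ISG15 ligase of mice, were measured. Both were called higher in CD24-CD172a+ cDC2 than in cDC1, by 0.74 ± 0.17 (Usp18, adjusted p = 0.012) and 0.95 ± 0.18 (Herc6, adjusted p = 0.00421). In CD24+CD172a+ cDC2 they stood at 5.95 ± 0.19 and 6.58 ± 0.14, against 6.53 ± 0.31 and 7.25 ± 0.38 in CD24-CD172a+ cDC2 and 5.80 ± 0.01 and 6.30 ± 0.08 in cDC1. Their differences between the cDC2 populations, -0.59 ± 0.17 and -0.67 ± 0.18, were not called (adjusted p = 0.138 and 0.112).

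Mx1, a GTPase that blocks influenza and related viruses and that is defective in many inbred mouse strains, was the clearest exception among the direct effectors. It was at 4.97 and 5.18 in CD24+CD172a+ cDC2, with 5.03 and 4.96 in CD24-CD172a+ cDC2 and 6.92 and 6.70 in cDC1. All 4 cDC2 arrays lay below both cDC1 arrays, and the cDC2 populations overlapped. Mx1 was 3.34-fold lower in CD24+CD172a+ cDC2 (-1.74 ± 0.14, adjusted p = 1.12e-05) and 3.54-fold lower in CD24-CD172a+ cDC2 (-1.82 ± 0.14, adjusted p = 7.83e-06) than in cDC1. Its relative Mx2 was dim in all 3 populations (3.64 ± 0.25, 3.89 ± 0.24 and 3.89 ± 0.08 in CD24+CD172a+ cDC2, CD24-CD172a+ cDC2 and cDC1) and was not called.

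Isg20, an RNA exonuclease, and Rsad2 (viperin, which makes a chain-terminating nucleotide) had the same order of populations as Ifit3. Isg20 was at 7.30 ± 0.09 in CD24+CD172a+ cDC2, 7.71 ± 0.09 in CD24-CD172a+ cDC2 and 6.03 ± 0.06 in cDC1. It exceeded cDC1 by 1.27 ± 0.13 in CD24+CD172a+ cDC2 and by 1.68 ± 0.13 in CD24-CD172a+ cDC2 (adjusted p = 6.62e-05 and 8.13e-06). Rsad2 was at 6.11 ± 0.04 in CD24+CD172a+ cDC2, 6.69 ± 0.03 in CD24-CD172a+ cDC2 and 5.04 ± 0.27 in cDC1, with differences from cDC1 of 1.06 ± 0.15 and 1.65 ± 0.15 (adjusted p = 0.00067 and 2.74e-05). Neither was called between the cDC2 populations (-0.41 ± 0.13 for Isg20 and -0.59 ± 0.15 for Rsad2, adjusted p = 0.174 and 0.0964). Cmpk2, the neighbour of Rsad2 that supplies nucleotides, was dim in every population (3.21 ± 0.09, 3.03 ± 0.09 and 3.12 ± 0.11 in CD24+CD172a+ cDC2, CD24-CD172a+ cDC2 and cDC1).

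Eif2ak2 (PKR, a kinase that halts translation when it binds double-stranded RNA) was lower in CD24-CD172a+ cDC2 (5.77 ± 0.16) than in cDC1 (6.37 ± 0.19), by -0.59 ± 0.15 (adjusted p = 0.0214). In CD24+CD172a+ cDC2 it stood at 6.10 and 5.91 and differed from cDC1 by -0.36 ± 0.15 (adjusted p = 0.163). Adar, which edits double-stranded RNA, and Samd9l, an inhibitor of translation and growth, were called nowhere. The largest of their differences was 0.25 for each, both between CD24+CD172a+ cDC2 and cDC1, with 95% intervals of -0.03 to 0.54 for Adar and -0.10 to 0.60 for Samd9l.

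The IFITM proteins sit in membranes and stop enveloped viruses from fusing, and all 4 of their genes were higher in both cDC2 populations than in cDC1. Ifitm6 was at 10.50 and 10.45 in CD24+CD172a+ cDC2, against 10.60 and 10.66 in CD24-CD172a+ cDC2 and 8.24 and 7.79 in cDC1. Ifitm1 was at 11.34 and 11.45 in CD24+CD172a+ cDC2, against 11.50 and 11.49 in CD24-CD172a+ cDC2 and 9.51 and 9.27 in cDC1. For both genes every cDC2 array lay well above both cDC1 arrays. Ifitm6 exceeded cDC1 by 2.46 ± 0.16 (5.49-fold, adjusted p = 2.14e-06) in CD24+CD172a+ cDC2 and by 2.61 ± 0.16 (6.12-fold, adjusted p = 1.3e-06) in CD24-CD172a+ cDC2. Ifitm1 was 4.01-fold higher than cDC1 in CD24+CD172a+ cDC2 (adjusted p = 3.01e-06) and 4.30-fold higher in CD24-CD172a+ cDC2 (2.11 ± 0.14, adjusted p = 2e-06). These 2 members were thus among the largest differences from cDC1 although their printed promoters hold no ISRE-like word.

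Ifitm3, which restricts influenza virus entry, was at 12.22 and 12.21 in CD24+CD172a+ cDC2, with 12.17 and 12.24 in CD24-CD172a+ cDC2 and 11.45 and 11.19 in cDC1. Both cDC2 populations exceeded cDC1 by 0.89 ± 0.14 (adjusted p = 0.00116 for CD24+CD172a+ cDC2 and 0.00115 for CD24-CD172a+ cDC2). Ifitm2 was at 11.78 and 12.17 in CD24+CD172a+ cDC2, against 11.87 and 11.91 in CD24-CD172a+ cDC2 and 11.34 and 11.34 in cDC1. It was called by less (0.63 ± 0.15 and 0.55 ± 0.15, adjusted p = 0.0171 and 0.0311), and its 2 dimmer probe sets gave 0.34 and 0.27 in both comparisons without a call. The second probe set of Ifitm1 gave 1.93 and 1.96. Between the cDC2 populations the 4 IFITM genes differed by -0.16 to 0.08, and the widest 95% interval among them, that of Ifitm6, ran from -0.51 to 0.19. IFITM genes resemble each other in sequence, and cross-hybridisation between their probe sets was not tested.

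**Figure D3:**
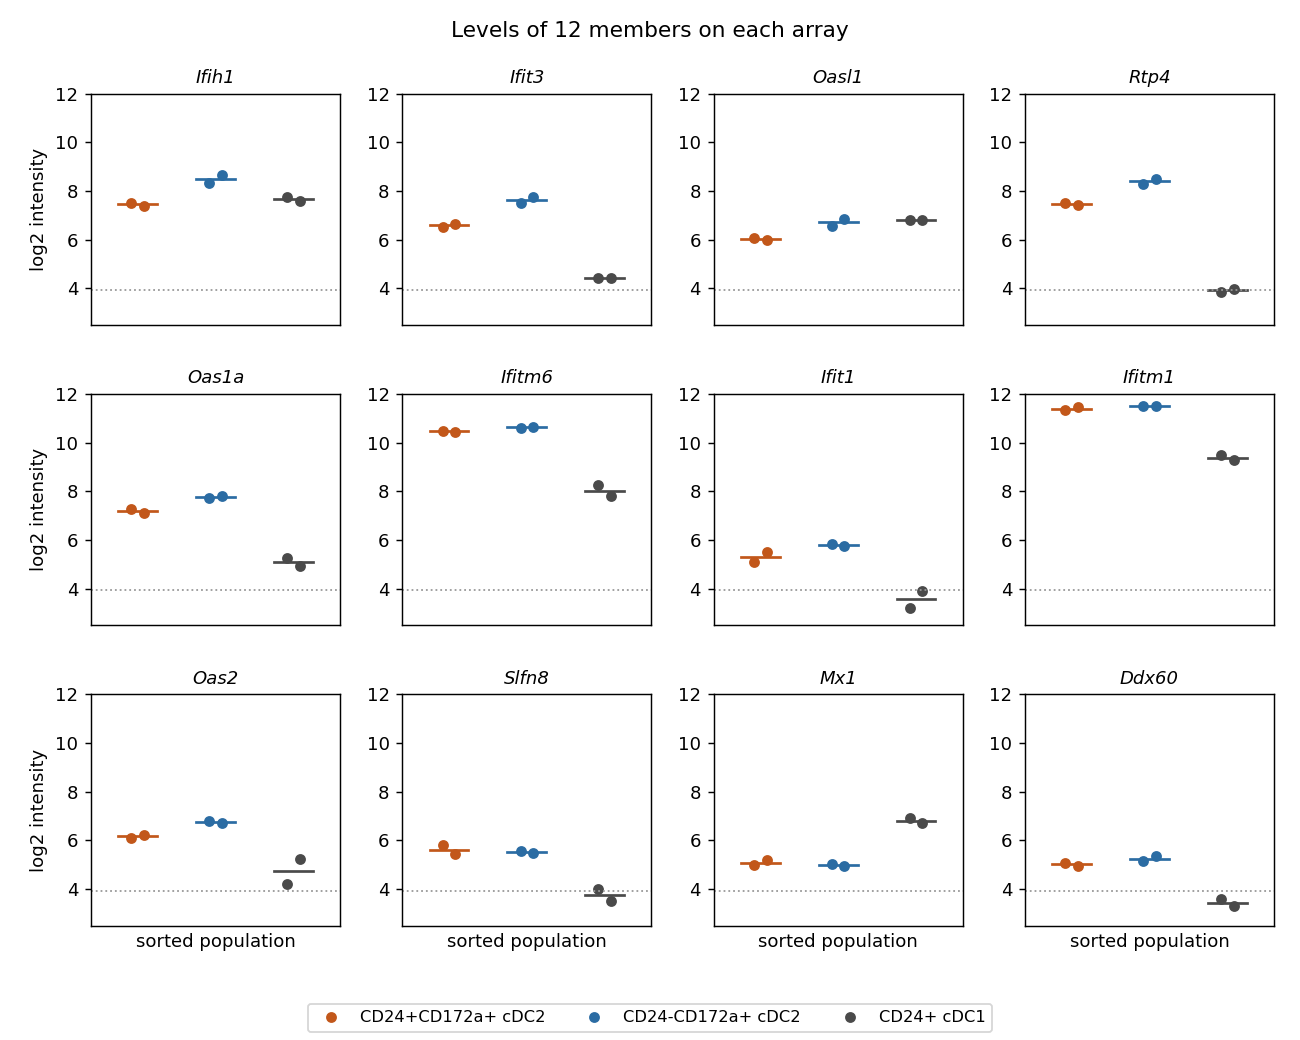
Log2 intensity on each array (points) with the group mean (bar) for the 12 members called between the cDC2 populations or among the 10 with the largest called differences from cDC1, with the dotted line at 3.93, the 25th percentile of all genes. Ifit3, Rtp4 and Oas1a form 3 steps, Ifitm6, Ifitm1 and Slfn8 set cDC1 alone apart, and Mx1 is higher in cDC1.

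Of the ADP-ribosylation genes, Parp9, the partner of DTX3L, and Parp14, a mono-ADP-ribosyltransferase, were higher in both cDC2 populations than in cDC1 and Parp12 was lower in both. Parp9 was at 6.57 ± 0.02 in CD24+CD172a+ cDC2, 6.82 ± 0.10 in CD24-CD172a+ cDC2 and 5.96 ± 0.31 in cDC1 (differences from cDC1 of 0.60 ± 0.16 and 0.86 ± 0.16, adjusted p = 0.0288 and 0.00386). Parp14 was at 6.66 ± 0.03 in CD24+CD172a+ cDC2, 6.74 ± 0.06 in CD24-CD172a+ cDC2 and 5.84 ± 0.23 in cDC1 (0.82 ± 0.14 and 0.90 ± 0.14, adjusted p = 0.00288 and 0.00143). Parp12, a zinc finger member of the family that hinders translation of viral RNA, was at 5.81 ± 0.23 in CD24+CD172a+ cDC2, 6.13 ± 0.13 in CD24-CD172a+ cDC2 and 6.82 ± 0.07 in cDC1. Its differences from cDC1 were -1.01 ± 0.15 (2.01-fold lower, adjusted p = 0.001) and -0.69 ± 0.15 (1.61-fold lower, adjusted p = 0.00956). Dtx3l, the ubiquitin ligase that pairs with PARP9, differed by no more than 0.11 in any comparison (95% interval of -0.51 to 0.29 for CD24-CD172a+ cDC2 against cDC1).

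The Schlafen genes, a family that includes inhibitors of viral protein synthesis, gave 1 clear difference. Slfn8 was at 5.82 and 5.44 in CD24+CD172a+ cDC2, against 5.55 and 5.47 in CD24-CD172a+ cDC2 and 3.99 and 3.53 in cDC1. The cDC2 populations overlapped and both lay above cDC1, where the mean was dim. The differences from cDC1 were 1.87 ± 0.18 (3.65-fold, adjusted p = 4.26e-05) for CD24+CD172a+ cDC2 and 1.75 ± 0.18 (3.37-fold, adjusted p = 7.12e-05) for CD24-CD172a+ cDC2. Slfn5 differed by 0.12, -0.06 and -0.18 in the 3 comparisons and was not called.

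Rtp4, an interferon-induced protein of the receptor transporter family, gave the largest differences from cDC1 in the module. It was at 7.49 and 7.44 in CD24+CD172a+ cDC2, with 8.30 and 8.48 in CD24-CD172a+ cDC2 and 3.83 and 3.98 in cDC1, where its mean of 3.91 was dim. The 3 populations formed steps without overlap, as for Ifit3. Rtp4 was 1.90-fold lower in CD24+CD172a+ cDC2 than in CD24-CD172a+ cDC2 (-0.93 ± 0.13, adjusted p = 0.00973). Against cDC1 it was 11.8-fold higher in CD24+CD172a+ cDC2 (3.56 ± 0.13, adjusted p = 4.09e-08) and 22.4-fold higher in CD24-CD172a+ cDC2 (4.49 ± 0.13, adjusted p = 1.04e-08).

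Xaf1, a pro-apoptotic partner of the inhibitor XIAP, was at 7.60 ± 0.08 in CD24+CD172a+ cDC2, 7.65 ± 0.00 in CD24-CD172a+ cDC2 and 6.27 ± 0.14 in cDC1, a difference from cDC1 of 1.33 ± 0.13 and 1.38 ± 0.13 (adjusted p = 5.19e-05 and 4.08e-05). Helz2, a helicase that acts as a transcriptional coactivator, was called higher in CD24+CD172a+ cDC2 (6.26 ± 0.06) than in cDC1 (5.66 ± 0.22), by 0.60 ± 0.14 (adjusted p = 0.017). Its difference between CD24-CD172a+ cDC2 (6.07 ± 0.06) and cDC1 was 0.41 ± 0.14 (adjusted p = 0.0868). Phf11d, a PHD finger gene, was at 6.40 and 5.93 in CD24+CD172a+ cDC2, against 6.69 and 6.75 in CD24-CD172a+ cDC2 and 6.15 and 6.26 in cDC1. The CD24-CD172a+ cDC2 arrays lay above all others, but its differences of -0.56 ± 0.16 between the cDC2 populations and 0.51 ± 0.16 from cDC1 were not called (adjusted p = 0.145 and 0.059).

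Ifi35 and the torsin family gene Tor3a lay lower in cDC2 without a call. Ifi35 was at 7.42 and 7.39 in CD24+CD172a+ cDC2, against 7.57 and 7.38 in CD24-CD172a+ cDC2 and 7.78 and 7.70 in cDC1 (adjusted p = 0.128 and 0.229 against cDC1). Tor3a was at 5.54 and 5.46 in CD24+CD172a+ cDC2, with 5.49 and 5.55 in CD24-CD172a+ cDC2 and 5.95 and 5.83 in cDC1 (adjusted p = 0.0737 and 0.076). Lgals3bp, a secreted galectin-binding glycoprotein, was level across the arrays at 6.04 to 6.24, with differences of 0.00, -0.04 and -0.04.

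**Figure D4:**
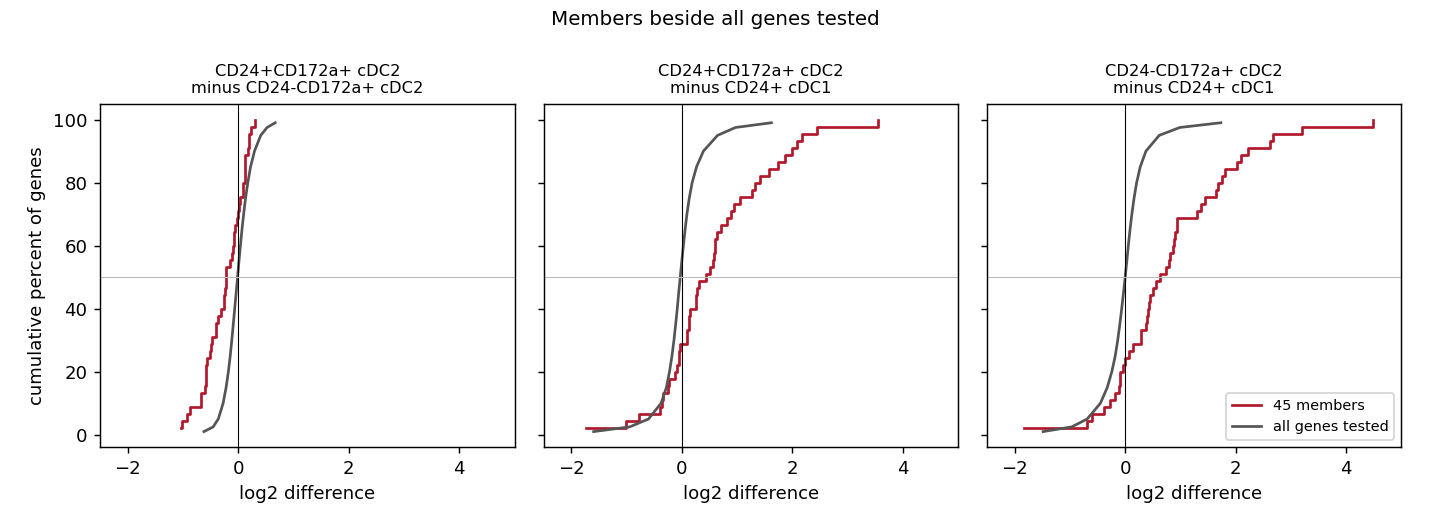
Cumulative percent of genes at or below each log2 difference, for the 45 members (red steps) and for all genes tested (grey line), in each comparison. The members' curve lies left of all genes between the cDC2 populations, with medians of -0.23 and -0.01. Against cDC1 it lies mostly right of all genes, with member medians of 0.43 and 0.63. For CD24+CD172a+ cDC2 against cDC1 it lies left of all genes at the 5th percentile (-0.69 against -0.60).

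The number of calls between the cDC2 populations changed with which of their arrays was left out. Leaving out CD24+CD172a+ cDC2 replicate 1, CD24+CD172a+ cDC2 replicate 2 or CD24-CD172a+ cDC2 replicate 2 left 0 members called lower by limma (10, 16 and 13 at an unadjusted p under 0.05). Without CD24-CD172a+ cDC2 replicate 1, Ifih1, Ifit3 and Rtp4 were still called, Ifit2 was added and Oasl1 was lost. Without either cDC1 array, Ifih1, Ifit3 and Rtp4 were called. Over the 4 fits without a cDC2 array the differences were -0.88 to -1.18 for Ifih1, -0.90 to -1.15 for Ifit3, -0.84 to -1.02 for Rtp4 and -0.53 to -0.82 for Oasl1. Their sign could not change, since the arrays of the cDC2 populations did not overlap for these genes. Over these 4 fits the adjusted p ran from 0.0208 to 0.0952 for Ifih1, from 0.0208 to 0.103 for Ifit3, from 0.0325 to 0.102 for Rtp4 and from 0.0631 to 0.247 for Oasl1. Against cDC1, 17 of 24 calls for CD24+CD172a+ cDC2 and 22 of 26 for CD24-CD172a+ cDC2 held in each fit that left out a compared array. For CD24+CD172a+ cDC2, those lost in some fit were Irf9 (in all 4, adjusted p = 0.0787 to 0.161), Ifnar2 (0.0278 to 0.158) and Ifitm2 (0.0112 to 0.145), which both needed CD24+CD172a+ cDC2 replicate 2 and both cDC1 arrays, and Oasl2 (0.019 to 0.0929), which needed CD24+CD172a+ cDC2 replicate 2 and cDC1 replicate 2. Mavs (0.0338 to 0.117), Parp9 (0.0115 to 0.239) and Helz2 (0.0177 to 0.155) each needed both CD24+CD172a+ cDC2 arrays and cDC1 replicate 1, and Parp9 had a difference of 0.38 without that cDC1 array. For CD24-CD172a+ cDC2 they were Ifitm2 (in all 4, adjusted p = 0.0932 to 0.136), Usp18 (0.00592 to 0.0837, lost without CD24-CD172a+ cDC2 replicate 2 or either cDC1 array), Eif2ak2 (0.0299 to 0.176, lost without replicate 1 of either population) and Parp12 (0.0215 to 0.067, lost without replicate 2 of either).

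Other genes of the interferon pathway, from a list that holds no member, were read alongside. Of 57 measured, 12 were higher and 12 lower in CD24+CD172a+ cDC2 than in cDC1, and 12 were higher and 14 lower in CD24-CD172a+ cDC2 than in cDC1. Over all genes 7.11% were higher and 6.52% lower in the first of these comparisons, and 6.83% and 8.91% in the second. Between the cDC2 populations 1.46% of all genes were called. The same shares stand beside the sub-lists below. Between the cDC2 populations 1 was called, Tlr7, an endosomal sensor of single-stranded RNA, which was lower in CD24+CD172a+ cDC2 (-1.39 ± 0.21, adjusted p = 0.0141). The 7 interferon genes measured were called in none of the comparisons (by limma, 1 had an unadjusted p under 0.05, in CD24-CD172a+ cDC2 against cDC1), and 4 of them were dim in each population. Among 15 receptor and signalling genes, 4 were higher and 2 lower than cDC1 in each cDC2 population, and Irf8, a factor cDC1 require, had the largest difference (-2.79 ± 0.20 and -2.33 ± 0.20). Among 12 sensing genes, 3 were higher and 2 lower in each. Tlr7 was at 6.82 and 7.31 in CD24+CD172a+ cDC2, against 8.16 and 8.74 in CD24-CD172a+ cDC2 and 3.15 and 2.88 in cDC1. Since its cDC1 level was dim and not shown to be above background, the size of its differences from cDC1, fitted at 4.05 and 5.44, is uncertain. Ddx58 (RIG-I, the sensor of short viral RNA) exceeded cDC1 by 2.20 ± 0.16 and 2.45 ± 0.16, and Tlr3, a cDC1 receptor for double-stranded RNA, was lower than in cDC1 by -4.24 ± 0.13 and -4.23 ± 0.13.

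Of 23 other interferon-induced genes, 5 were higher and 8 lower in CD24+CD172a+ cDC2, and 5 were higher and 10 lower in CD24-CD172a+ cDC2, than in cDC1. Their median differences, -0.23 and -0.39, were opposite in sign to those of the 45 members. Between the cDC2 populations 0 of the 23 were called (by limma, 3 higher and 5 lower at an unadjusted p under 0.05). Their median difference there was 0.02, against -0.23 over the 45 members. Ms4a4c, a membrane-spanning gene, was higher than in cDC1 by 4.77 ± 0.17 for CD24+CD172a+ cDC2 and by 4.68 ± 0.17 for CD24-CD172a+ cDC2, and Ifi27l2a was higher by 2.56 ± 0.18 and 3.09 ± 0.18. The chemokine Cxcl9 was lower by -3.08 ± 0.13 and -2.84 ± 0.13, and Ly6e, a surface protein that blocks coronavirus entry, by -1.27 ± 0.14 and -1.31 ± 0.14. The immunoproteasome subunits Psmb8 and Psmb9 and the peptide transporter Tap1 were also lower in both cDC2 populations, by -0.72 to -1.05. Interferon-induced genes as a class thus did not run one way between cDC2 and cDC1.

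Markers of other cells moved with the comparison of the cDC2 populations, in which 0.808% of all genes were higher and 0.652% lower in CD24+CD172a+ cDC2. CD24+CD172a+ cDC2 had 8 of 16 monocyte and macrophage markers lower and 0 higher (0 at an unadjusted p under 0.05 in limma). The 8 lower ones were Adgre1 (-1.12 ± 0.16), Lyz2, C1qa (-0.88 ± 0.14), C1qb, C1qc, Spic (-1.56 ± 0.20), Treml4 and Fcgr4. The summed level of the list was 12.61 and 12.85 in CD24+CD172a+ cDC2, against 13.23 and 13.28 in CD24-CD172a+ cDC2 and 13.09 and 13.08 in cDC1. The median difference over the 16 markers was -0.56, and 11 were lower at an unadjusted p under 0.05 in limma. Of the 8 not called, Mertk was dim in all 3 populations and Fcgr1 read 4.54 to 4.74 on all arrays. Of 9 plasmacytoid dendritic cell markers, 3 were higher in CD24+CD172a+ cDC2 (Siglech by 1.08 ± 0.14, Tcf4 and Spib) and 0 lower (0 at an unadjusted p under 0.05), with summed levels of 9.80 and 9.80 against 9.25 and 9.21 in CD24-CD172a+ cDC2 and 9.67 and 9.62 in cDC1. Whether monocytes, macrophages or plasmacytoid dendritic cells were among the sorted cells was not tested. Any part of theirs in the lower Ifih1, Ifit3, Rtp4 and Oasl1 was not tested either. Of the B, T, NK and erythroid cell markers none was called between the cDC2 populations by limma (at an unadjusted p under 0.05, 1 T cell and 1 NK cell marker were lower), and of 10 neutrophil markers 2 were higher in CD24+CD172a+ cDC2. Of the 10 cDC1 markers, Cd8a was higher in CD24+CD172a+ than in CD24-CD172a+ cDC2 (2.11 ± 0.19), and Cadm1 (-0.84 ± 0.17) and Ly75 (-0.80 ± 0.16) were lower.

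Such markers also moved in the comparisons with cDC1, where 21 and 23 members were higher. The shares of all genes were 7.11% higher and 6.52% lower for CD24+CD172a+ cDC2, and 6.83% and 8.91% for CD24-CD172a+ cDC2. Of the 16 monocyte and macrophage markers, 3 were higher and 4 lower in CD24+CD172a+ cDC2, with a median difference of 0.04, and 7 were higher and 2 lower in CD24-CD172a+ cDC2, with a median of 0.46. Of the 9 plasmacytoid markers, 3 were higher and 2 lower in CD24+CD172a+ cDC2, and 2 were higher and 4 lower in CD24-CD172a+ cDC2. Neutrophil markers were higher for 3 of 10 in CD24+CD172a+ cDC2 and for 1 of 10 in CD24-CD172a+ cDC2, with 0 lower (at an unadjusted p under 0.05 in limma, 0 and 1). The summed neutrophil level was 8.43 and 8.30 in CD24+CD172a+ cDC2, against 7.85 and 7.90 in CD24-CD172a+ cDC2 and 7.73 and 7.76 in cDC1. Of 6 B cell markers, 2 were higher and 1 lower in CD24+CD172a+ cDC2, and 1 was higher and 1 lower in CD24-CD172a+ cDC2. A T cell marker, 1 of 4, was higher in CD24-CD172a+ cDC2.

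Of 4 sex-linked genes, the Y-linked Uty and Eif2s3y were higher in both cDC2 populations than in cDC1, by 0.98 ± 0.13 and 1.22 ± 0.13 for Uty and by 0.60 ± 0.15 and 0.68 ± 0.15 for Eif2s3y. Uty was at 7.19 and 7.18 in CD24+CD172a+ cDC2, against 7.34 and 7.52 in CD24-CD172a+ cDC2 and 6.25 and 6.17 in cDC1. Kdm5d, also Y-linked, was called nowhere, and Xist, which is transcribed from the inactive X chromosome, was dim on all arrays (3.18 to 3.64). Any part of other cell types, and of the mice used, in the members' differences from cDC1 was not tested.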

How the data were processed

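Total RNA of sorted cells was extracted on columns and labelled as biotinylated cDNA with the Affymetrix WT Pico kit, per the labels' protocols. The deposited values are intensities from Affymetrix Expression Console with RMA, per the submitters' processing notes. RMA corrects background, normalises between arrays and summarises probe sets, and versions and a build are not given in the sources used here. The authors deposited these intensities on a linear scale (array medians from 29.5 to 30.6), so log2 was taken before each test. Scan batches and signal over background were not examined, since no scanner file or detection call was used, and precision is limited by the number of arrays.

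Of 28853 probe sets, 21789 with 1 symbol were used, and 1621 with several and 5443 with none were left out. For the 999 genes with several probe sets the brightest on average was kept, which left 19938 genes without a filter on dim ones. Gene IDs of 21698 probe sets matched the RefSeq table of GRCm38.p6. Populations were compared in R 4.3.3 by limma 3.58.1 (lmFit, then eBayes, all 6 arrays in 1 fit, 3 residual and 7.31 prior degrees of freedom), two-sided, with Benjamini-Hochberg adjustment over all genes and a threshold of 0.05. The code was first tested on simulated data. The members and lists were chosen with earlier results of these data known, and roles were assigned from general knowledge. No test was made of the module as a whole. Motifs were searched in RefSeq windows of 300 bases (GRCm38.p6). Values on every array are given for members called between the cDC2 populations, for the 10 largest called differences from cDC1 and for IFITM genes, with other called members as means. Uncalled members with an unadjusted p under 0.05 in some comparison also have their array values. Alternatives were 2 filters on dim genes, 2 ways of using probe sets, 3 normalisations, array weights, a robust variance with an intensity trend, only the compared groups, a replicate block and leaving out each array. Python 3.11.15 with matplotlib 3.10.9 drew the figures.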

Additional observations from a re-analysis of the deposited data

How the results depend on the processing

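Counts of called members and their medians were recomputed under 11 changes of processing and without each of the 6 arrays. The one count to change by more than 1.5 times was that of members lower in CD24+CD172a+ than in CD24-CD172a+ cDC2, 4 in the report. It ran from 0 to 4 over the fits without 1 array, in which a lone array is assumed to vary like the other groups, and was 3 to 5 under the other changes, with Oasl1 lost under all probe sets, median centring, array weights or only the compared groups, Zbp1 added among genes above the median and Herc6 added with the block. Members higher than cDC1 numbered 14 to 22 for CD24+CD172a+ cDC2 and 21 to 26 for CD24-CD172a+ cDC2 over all alternatives. Medians stayed between -0.23 and -0.14 for the cDC2 populations, 0.29 and 0.54 for CD24+CD172a+ cDC2 against cDC1, and 0.53 and 0.71 for CD24-CD172a+ cDC2 against cDC1. No called member changed sign, and up to 6 uncalled members did so in an alternative. In the fits without 1 array a called member could not change sign, since its arrays in the compared populations did not overlap. Ifitm2 lost its calls against cDC1 with the mean of its probe sets, at 0.42 for CD24+CD172a+ cDC2, and its call for CD24-CD172a+ cDC2 also when all probe sets entered the adjustment, as did Parp9 for CD24+CD172a+ cDC2. The causes were not tested.

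Replicate numbers in the titles are not stated to pair arrays, and the deviations of same-numbered arrays correlated across genes at 0.08 (both cDC2 populations), 0.08 (CD24+CD172a+ cDC2 and cDC1) and 0.02 (CD24-CD172a+ cDC2 and cDC1). Across the 45 members alone these correlations were 0.27, 0.29 and -0.05. The titles state no pairing, so the main fit had no block and the block was run as an alternative. With the replicate block, 5 members were lower and 0 higher (1 at an unadjusted p under 0.05 in limma) between the cDC2 populations. Against cDC1 the block gave 22 higher and 3 lower members for CD24+CD172a+ cDC2 (Oas3 gained), and 26 higher and 3 lower for CD24-CD172a+ cDC2 (Stat2, Ifnar1 and Oas3 gained).

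Of all genes, 291 differed between the cDC2 populations by the same threshold, 161 of them higher and 130 lower where CD24 is carried. The number was 20 to 98 without a compared array, 187 with only the compared groups, 89 with all probe sets, 437 among genes above the median and 464 with an intensity trend, and median centring gave 213 higher and 111 lower. Against cDC1, 2718 and 3137 genes were called for CD24+CD172a+ and CD24-CD172a+ cDC2, and 1781 to 1913 and 1922 to 2451 without a compared array. With 2 arrays a population, differences between the cDC2 populations that were not called are limited by the number of arrays, and members that were dim in cDC1 have unknown signal over background there.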
